A study of Mus musculus with 11 samples.

Results

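*Six2*, *Six3*, *Six4*, *Six5* and *Six6* encode transcription factors of the sine oculis homeobox family, and their H3K27me3 peaks were compared between 4 regions of the embryonic mouse forebrain. These 5 genes were chosen by name from the 21755 protein-coding genes on chromosomes 1 to 19 and X, with *Six3* as the member known for its role in the ventral forebrain. Each gene was examined over its body and 10 kb either side, called its window here. Nuclei were isolated from the medial (MGE), caudal (CGE) and lateral (LGE) ganglionic eminences and from the cortex (CTX) of wild-type C57BL/6J embryos, and H3K27me3 was profiled by CUT&Tag, in which an antibody tethers a transposase to nucleosomes carrying the mark so that nearby DNA is cut and tagged. The ganglionic eminences (GEs) are the ventral zones that give rise to GABAergic neurons, and the cortex is the dorsal zone that gives rise to glutamatergic neurons. The series holds 11 samples, of which 2 were from MGE and 3 each from CGE, LGE and CTX, with 100000 nuclei in each reaction. The study's results place the CUT&Tag samples at E12.5, whereas its dissection methods and the protocol in the labels name E12.5 and E14.5. No age is given for a single sample in the labels. The labels name no genetic change, transgene or treatment in any group.

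The samples of each region were merged before peaks were called, so a region has a single list of broad peaks and its values carry no replicate error. No difference between regions was tested, and a value in a list cannot be set against the spread between embryos. The lists held 15384 peaks in MGE (24.5 Mb), 16851 in LGE (26.4 Mb), 19196 in CGE (32.9 Mb) and 18785 in CTX (31.2 Mb). The lists carry no read depth. By the totals in the study's methods, which were not used here, MGE was sequenced least and CGE most deeply, with LGE and CTX between them, the same order as the covered bases; the part of depth in the differences below was not tested. Each list comes from a mixture of cells, and a mark present in few cells and a weak mark in many cells cannot be told apart. The region labels were read against genes with known regional expression, by the share of the window under peaks. *Nkx2-1*, an MGE gene, was least covered in MGE (42.7%, against 50.3 to 54.3% in the other lists), *Nr2f2*, a CGE gene, in CGE (28.7%, against 33.9 to 36.4%), and the cortical gene *Emx1* in CTX (14.7%, against 25.3 to 28.5%). The cortical gene *Neurod6* was also least covered in CTX, and the GE genes *Dlx2* and *Gad1* were most covered there, although *Neurod6* and *Gad1* varied by less than 1 point. *Dlx2* stood at 49.1% in CTX, close to the 48.6% of CGE. As at *Nkx2-1*, mean window coverage over all protein-coding genes was lowest in MGE, at 2.67% against 2.86 to 3.36% in the other lists. Promoter coverage, over the 2 kb upstream of the 5′ end, was the measure set in the design for this check and gave little separation. It was 100% for *Nkx2-1* everywhere, MGE included, and at least 97.35% for *Emx1*. *Nr2f2* had 100% in MGE and 54.55 to 55.2% elsewhere, with CGE lowest. *Neurod6*, *Dlx2* and *Gad1* had none.

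Proteins of this family carry a domain of their own, which binds partner proteins, beside a homeodomain, which binds DNA. With EYA partners they activate genes, and with Groucho-type corepressors they repress them. SIX3 and SIX6 act mainly as repressors in the anterior forebrain and the eye, where SIX3 restrains WNT signalling, whereas SIX2 maintains the progenitors of the nephron, and SIX4 acts in muscle and sensory placodes. Loss of SIX5 in mice leads to cataract. H3K27me3 is deposited by Polycomb repressive complex 2, commonly spreads over CpG-rich sequence around the 5′ ends of silent developmental genes, and is a mark of repression and not a measure of RNA.

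The sequences before the 5′ ends of *Six2*, *Six3* and *Six6* are shown because they differed in whether peaks covered them. Each is 250 bases of the GRCm38 (mm10) assembly, 5′ to 3′ on the strand of the gene, from the RefSeq copy of the genome, and capitals mark CpG dinucleotides. Stretches were placed before any exon of a protein-coding transcript. The *Six2* stretch (chr17:85688275-85688524, minus strand) was covered over 100% in CTX and over 0% in each GE, and it holds 26 CpG. *Six3* has an outer and an inner 5′ end. The stretch before the outer end (chr17:85613358-85613607, plus strand) was covered over 100% in each GE and over 0% in CTX, and that before the inner end (chr17:85620584-85620833, plus strand) over 0% in every list, with 10 CpG in each. The *Six6* stretch (chr12:72939460-72939709, plus strand) was covered over 100% in every list, and it also holds 10 CpG.
Six2: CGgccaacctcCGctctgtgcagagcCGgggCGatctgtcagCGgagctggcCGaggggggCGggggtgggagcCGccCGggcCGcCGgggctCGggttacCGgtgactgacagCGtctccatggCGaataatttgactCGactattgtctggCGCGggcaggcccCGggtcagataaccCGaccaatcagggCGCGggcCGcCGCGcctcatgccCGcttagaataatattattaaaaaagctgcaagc
Six3 outer end: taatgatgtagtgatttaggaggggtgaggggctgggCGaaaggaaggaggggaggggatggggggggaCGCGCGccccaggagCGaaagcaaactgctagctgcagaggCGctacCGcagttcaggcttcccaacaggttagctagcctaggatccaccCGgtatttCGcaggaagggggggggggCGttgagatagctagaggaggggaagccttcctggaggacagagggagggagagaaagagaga
Six3 inner end: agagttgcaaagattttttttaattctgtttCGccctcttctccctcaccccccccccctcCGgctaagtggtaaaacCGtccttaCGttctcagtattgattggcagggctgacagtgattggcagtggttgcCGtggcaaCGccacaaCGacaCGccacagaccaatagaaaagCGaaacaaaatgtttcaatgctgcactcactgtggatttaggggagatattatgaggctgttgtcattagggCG
Six6: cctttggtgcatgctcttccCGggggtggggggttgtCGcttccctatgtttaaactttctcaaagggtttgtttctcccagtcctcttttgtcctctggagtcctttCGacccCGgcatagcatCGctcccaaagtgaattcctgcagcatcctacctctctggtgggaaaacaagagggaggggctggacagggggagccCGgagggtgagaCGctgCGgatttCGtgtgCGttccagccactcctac
In the RefSeq promoter table, the 250 bases before each listed start can be set against those of 32619 promoters, whose median was 6 CpG. There *Six2* held 26 CpG, above 90.3% of promoters, and *Six6* held 17, above 76.3%, more than in the shifted stretch printed here. *Six3* held 10 at its inner end, above 62.0%. *Six5* (chr7:19094294-19094543, plus strand) held 13 and was under no peak in any list. The *Six4* starts (chr12:73113246-73113495 and chr12:73113426-73113675, minus strand) held 15 and 13 CpG, and peaks covered them over 53.2 and 100% in MGE and over 0% in the other lists. The table holds an entry for each of the 5 genes. TGATAC, a core sequence recognised by proteins of the family, was absent on both strands from these bases at each of them, and 4.68% of all promoters there hold it. These are matches of letters and say nothing of whether a protein binds.

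All 5 windows held peaks in all 4 lists, which was the case for 36.1% of protein-coding genes. In single lists, a window held at least 1 covered base for 43.3% of genes in MGE, 44.7% in LGE, 46% in CGE and 47.2% in CTX. The genes fell into a widely covered and a sparsely covered set. *Six2* was covered over 48.8% of its window in MGE, 42.3% in LGE, 47.9% in CGE and 51.9% in CTX. *Six3* was covered over 35.9% in MGE, 37.2% in LGE, 41.0% in CGE and 35.8% in CTX. *Six6* was covered over 31.6% in MGE, 25.9% in LGE, 30.5% in CGE and 30.6% in CTX. The ranges of these 3 genes over the lists did not overlap, so with these windows their order was the same in each region. The order depended on the window and the gene bounds, and it held in all 4 lists under 3 of 9 alternative settings. With RefSeq bounds, in which *Six2* is a longer gene, *Six2* was covered over 26.5% of its window in MGE, 26.0% in LGE, 31.8% in CGE and 34.5% in CTX, below *Six3* in each list. With 5 kb either side, *Six6* was above *Six3* in MGE, at 52.7% against 46.4%. *Six5* was covered over 7.28% in MGE, 13.3% in LGE, 17.6% in CGE and 7.91% in CTX. *Six4* was covered over 8.71% in MGE, 5.81% in LGE, 7.81% in CGE and 4.23% in CTX. *Six5* and *Six4* overlapped in range, and MGE was the list in which *Six4* was the more covered of the pair. The median over the 5 genes was 31.6% in MGE, 25.9% in LGE, 30.5% in CGE and 30.6% in CTX, whereas the median over all protein-coding genes was 0% in each list, and their 90th percentile was 8.11, 8.87, 10.4 and 9.33% in the same order. Among all genes, the windows of *Six2*, *Six3* and *Six6* lay above 98.5 to 99.7% of windows in each list, and the lowest place of any member was that of *Six4* in CTX, above 78.6%.

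**Figure D1:**
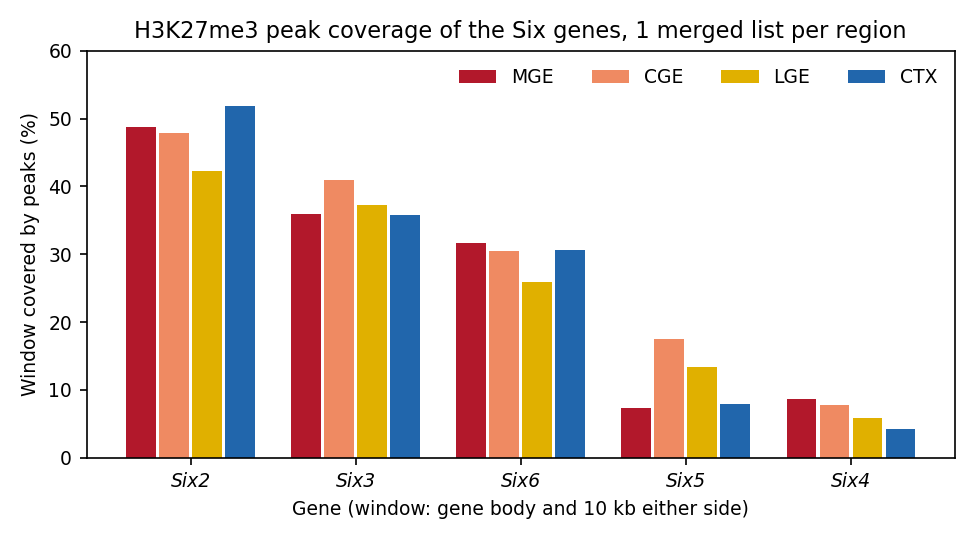
Share of each gene's window, the gene body and 10 kb either side, covered by H3K27me3 peaks (vertical axis, percent, from 0), with a bar for each of the 4 merged peak lists and no error bars, since each region has 1 list. *Six2*, *Six3* and *Six6* keep their order in every region with these windows, though not with RefSeq gene bounds, *Six5* is highest in CGE at 17.6%, and *Six4* is lowest in CTX at 4.23%.

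Compared with the mean of the 3 GEs, CTX coverage was higher at *Six2* and *Six6* and lower at *Six3*, *Six4* and *Six5*. The difference was 5.54 percentage points of the window at *Six2* and 1.32 points at *Six6*. It was -2.25 points at *Six3*, -3.21 points at *Six4* and -4.82 points at *Six5*. Among all protein-coding genes, the 5th and 95th percentiles of this difference were -1.98 and 2.48 points, so *Six6* lay within them and the other 4 genes outside. Among the 7858 genes covered in all 4 lists, the corresponding percentiles were -3.27 and 3.57 points, and *Six3* and *Six4* then lay within them. The direction at *Six3* depended on the setting: the difference was 0.0374 points when peaks with a q-value of 0.001 or more were left out, 11.1 points when peaks under 3 kb apart were joined, and 1.49 points with 50 kb either side. Joining peaks also turned *Six2* to -2.01 points and *Six6* to -0.391 points. Relative to the GE mean, *Six4* and *Six5* were lower in CTX under all 9 alternative settings. Single lists did not always follow the mean. *Six5* was more covered in CTX (7.91%) than in MGE (7.28%), and *Six6* less in CTX (30.6%) than in MGE (31.6%).

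**Figure D2:**
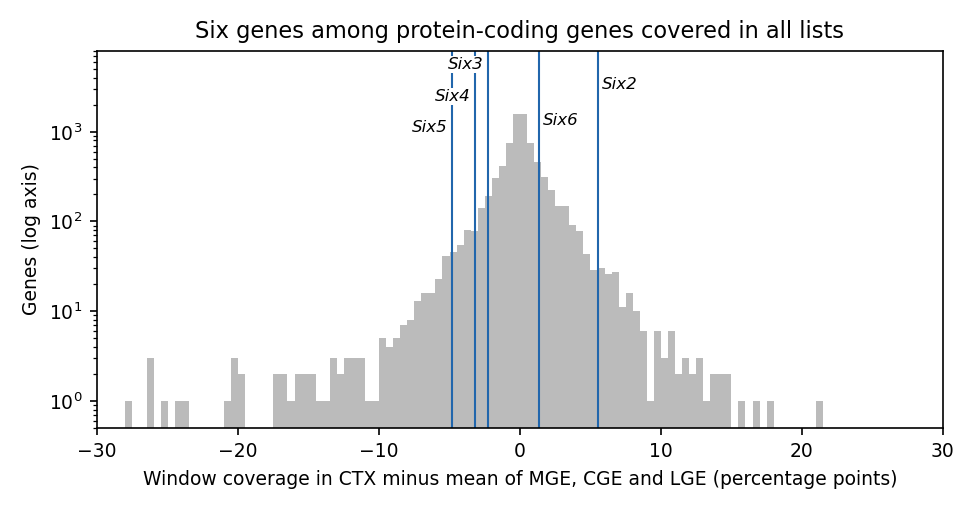
Number of protein-coding genes covered in all 4 lists (vertical log axis) by window coverage in CTX minus the mean of MGE, CGE and LGE (horizontal axis, percentage points), with a vertical line for each of the 5 genes; 3 genes beyond the axis are not drawn. *Six5* (-4.82 points) and *Six2* (5.54 points) lie farthest from 0 among the 5 genes.

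*Six3* (ENSMUSG00000038805; chr17:85613608-85629302, plus strand) regulates the formation of the anterior forebrain and the eye. Its 3 annotated 5′ ends lie at an outer position, 85613608, which falls within the antisense transcript *Six3os1*, and at 2 inner positions, 85620834 and 85621031. Both inner ends lay outside peaks in every list and were flanked by a peak on each side. The interval free of peaks around them was 4207 bases in MGE (chr17:85618337-85622543), 3490 bases in CGE, 3447 bases in LGE and 2972 bases in CTX (chr17:85618835-85621806). The interval was thus present in all 4 regions, longest in MGE and shortest in CTX. In MGE the peak on its downstream side had a -log10 q of 2.25, and it is left out at a q-value under 0.001. Of 93145 annotated transcript 5′ ends, 0.205% lay outside peaks with a peak within 3 kb on both sides in all 4 lists. Among the 9 annotated 5′ ends of the 5 genes, the 2 inner *Six3* ends did. Both lie in the same interval, so they are not separate instances. The share is over all ends, also those far from any peak, and is no test. When peaks under 3 kb apart were joined, both inner ends came under a peak in CTX and stayed outside peaks in the GEs.

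The outer *Six3* end was under a peak in the GEs and not in CTX. The peak over it was 7318 bases wide in MGE, 6905 bases in LGE and 6786 bases in CGE, and it overlapped the first part of the gene as well as *Six3os1*. In CTX the same stretch was split into a peak of 1452 bases and a peak of 4073 bases, separated by 1832 bases without peaks (chr17:85612930-85614761) that were covered in every GE. A 5′ end covered in the 3 GEs and not in CTX was found at 0.883% of protein-coding genes, and *Six3* was the only member with it. With peaks under 3 kb apart joined, the outer end was under a peak in all 4 lists, and the difference was lost. Over the gene as a whole, peaks covered 52.0% of the *Six3* body in MGE, 58.1% in LGE, 63.9% in CGE and 56.2% in CTX. At a q-value under 0.001 the MGE value was 35.6%, and those of the other lists did not change. The highest value, in CGE, came with a 4495-base peak downstream of the inner ends, over a stretch that held 2 separate peaks in each of the other lists.

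For the peak just downstream of the inner *Six3* ends, q-value ranks differed between lists while fold enrichment was alike. Fold enrichment is the ratio of the signal in a peak to its local background as MACS reports it, and q-values were compared as the share of peaks of the same list with a lower -log10 q, since q-values depend on depth, which the lists do not give. For that peak, which in CGE is part of the wider peak of 4495 bases, this share was 32.8% in MGE, 79.4% in LGE, 70.5% in CGE and 91.0% in CTX. The fold enrichment of the same peak was 1.75 in MGE, 1.89 in LGE, 1.72 in CGE and 1.75 in CTX. The rank was thus lowest in MGE and highest in CTX, while fold enrichment was alike in MGE and CTX. Taking the strongest peak that touches the gene body, the share was 71.4% in MGE, 79.4% in LGE, 71.0% in CGE and 91.0% in CTX, which is 17.1 points higher in CTX than the mean of the GEs, and 28.4 points higher among peaks of a q-value under 0.001. The strongest peak was the one over the outer end in MGE and CGE and the one downstream of the inner ends in LGE and CTX, so different peaks are compared. MGE and CGE were also the least and the most deeply sequenced. Among the 5649 genes with a gene-body peak in all lists, 17.1% had a difference at least as far from 0.

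**Figure D3:**
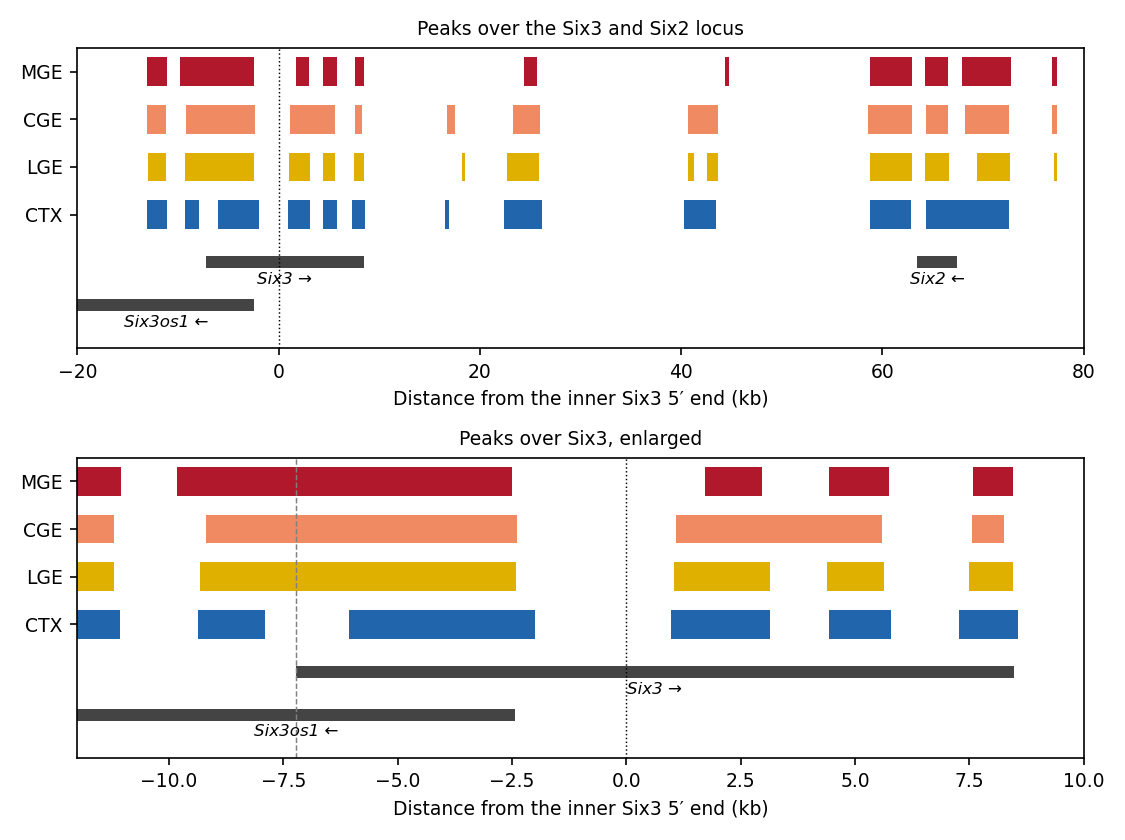
Peaks of each region (coloured boxes, a row per merged list) along the *Six3* and *Six2* locus and, below, enlarged over *Six3*, by distance from the inner *Six3* 5′ end (horizontal axis, kb); dark bars are genes with arrows for their direction, the dotted line is the inner end and the dashed line the outer end. The inner end lies in an interval without peaks in all 4 rows, the outer end in an interval without peaks in CTX, and the *Six2* 5′ end under a peak in CTX alone.

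*Six2* (ENSMUSG00000024134; chr17:85684277-85688274, minus strand), a nephron progenitor factor, lies 54974 bases from *Six3* on the same chromosome. Its 5′ end was under a peak in CTX and in no GE, a pattern found at 3.02% of protein-coding genes and at no other member. With peaks under 3 kb apart joined, it was under a peak in all 4 lists, so the pattern was lost. In CTX a single peak of 8321 bases (chr17:85685128-85693448) ran from within the gene to 5174 bases upstream of it. In the GEs this stretch held 2 peaks, and the interval between them, with the 5′ end inside it, was 1415 bases in MGE, 1618 bases in CGE and 2726 bases in LGE. The bases covered in CTX alone (chr17:85687463-85688728) numbered 1266 and include the *Six2* stretch printed above. Fold enrichment of the CTX peak was 1.69, and that of the GE peaks within the gene was 1.63 in MGE, 1.51 in CGE and 1.71 in LGE. A peak downstream of the gene was nearly the same in every list, at 4170 bases in MGE, 4226 in LGE, 4298 in CGE and 4126 in CTX. The strongest gene-body peak ranked above 87.4% of its list in MGE, 91.1% in LGE, 84.3% in CGE and 90.7% in CTX. Between *Six3* and *Six2*, peaks covered 10.7% of the sequence in MGE, 17.1% in LGE, 19.5% in CGE and 21.1% in CTX. MGE was the lowest of the 4 there, and *Six3* was most covered in CGE and *Six2* in CTX.

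*Six6* (ENSMUSG00000021099; chr12:72939892-72944899, plus strand), the closest relative of *Six3* and a factor of the optic vesicle and pituitary, was the member whose peaks were most shared. Of the bases covered in any list in its window, 77.7% were covered in all 4 lists, against 71.4% at *Six2*, 56.8% at *Six3*, 41.1% at *Six4*, 8.84% at *Six5* and 33.0% over chromosomes 1 to 19 and X. Its 5′ end was under a peak in every list, which was the case for 3164 of the 21755 protein-coding genes. That peak was 5423 bases wide in MGE, 2937 bases in LGE, 5371 bases in CGE and 5265 bases in CTX. LGE differed by an interval of 1280 bases upstream of the gene (chr12:72937813-72939092) that was covered in the other 3 lists and free of peaks in LGE. A peak past the 3′ end was 2479 bases wide in MGE, 2382 in LGE, 2254 in CGE and 2398 in CTX. The Jaccard index of covered bases in the window, the bases shared by 2 lists as a share of the bases in either, was 97.0% between MGE and CTX, 96.1% between MGE and CGE and at most 81.9% between LGE and the other lists. Between MGE and CTX over all chromosomes it was 46.5%. Outside the window, a peak upstream of *Six6* at chr12:72917048-72918156 in CGE had a fold enrichment of 6.04 in MGE, 6.30 in LGE, 6.85 in CGE and 6.30 in CTX, above at least 99.3% of the peaks in each list. This upstream peak, the *Six6* 5′ end and the interval free of peaks in LGE all lie within *4930447C04Rik* (chr12:72881109-72940774, minus strand), a protein-coding gene. The signal there cannot be assigned to either gene alone.

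*Six4* (ENSMUSG00000034460; chr12:73099609-73113456, minus strand), a factor of muscle and sensory placodes, carried an intronic peak in every list and, in the GEs, a further peak that reached its 5′ end in MGE alone. The intronic peak was 1809 bases wide in MGE, 1463 in LGE, 1834 in CGE and 1432 in CTX. Its fold enrichment was 3.76 in MGE, 3.72 in LGE, 3.77 in CGE and 2.88 in CTX, and its -log10 q was 29.5, 18.8, 60.5 and 3.86. Within its own list, the peak ranked above 92.5% of peaks in MGE, 79.7% in LGE, 92.5% in CGE and 50.5% in CTX. CTX was the lowest by each of these measures. The rank difference between CTX and the mean of the GEs was -37.7 points (-65.4 points among peaks of a q-value under 0.001), and 2.94% of the 5649 genes differed at least as far from 0; the median over those genes was 0.799 points. The further peak was 1139 bases wide in MGE, where it reached the 5′ end, 482 bases in CGE and 505 bases in LGE. In CTX the next peak upstream of *Six4* lay 403497 bases away.

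*Six5* (ENSMUSG00000040841; chr7:19094594-19098549, plus strand) was the member with the least sharing between regions. In the GEs a peak began 227 bases (MGE), 187 bases (CGE) and 119 bases (LGE) downstream of the 5′ end, and its width was 1327, 1844 and 1685 bases. Its fold enrichment was 3.05 in MGE, 2.71 in CGE and 3.35 in LGE, and it ranked above 75.5, 78.9 and 74.5% of the peaks of those lists. In CTX no base of the gene body was under a peak, and the nearest peak downstream of the 5′ end was 36862 bases away. A gene body with covered bases in the 3 GEs and none in CTX was found at 1.23% of protein-coding genes, and the reverse at 3.39%; *Six5* was the only member with the first pattern, and no member had the second. The CTX coverage in the *Six5* window came from an upstream peak of 1894 bases that lies over the neighbouring gene, and this peak was 418 bases wide in MGE, 1097 in LGE and 1439 in CGE. The Jaccard index in the window was 13.0% between MGE and CTX, and 73.2% between CGE and LGE. The sharing of MGE and CTX lay within the MGE peak of 418 bases, as did the bases covered in all lists. That peak had a -log10 q of 1.18, above only 0.969% of the peaks of its list. It is left out at a q-value under 0.001, where MGE coverage of the *Six5* window was 5.54%.

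**Figure D4:**
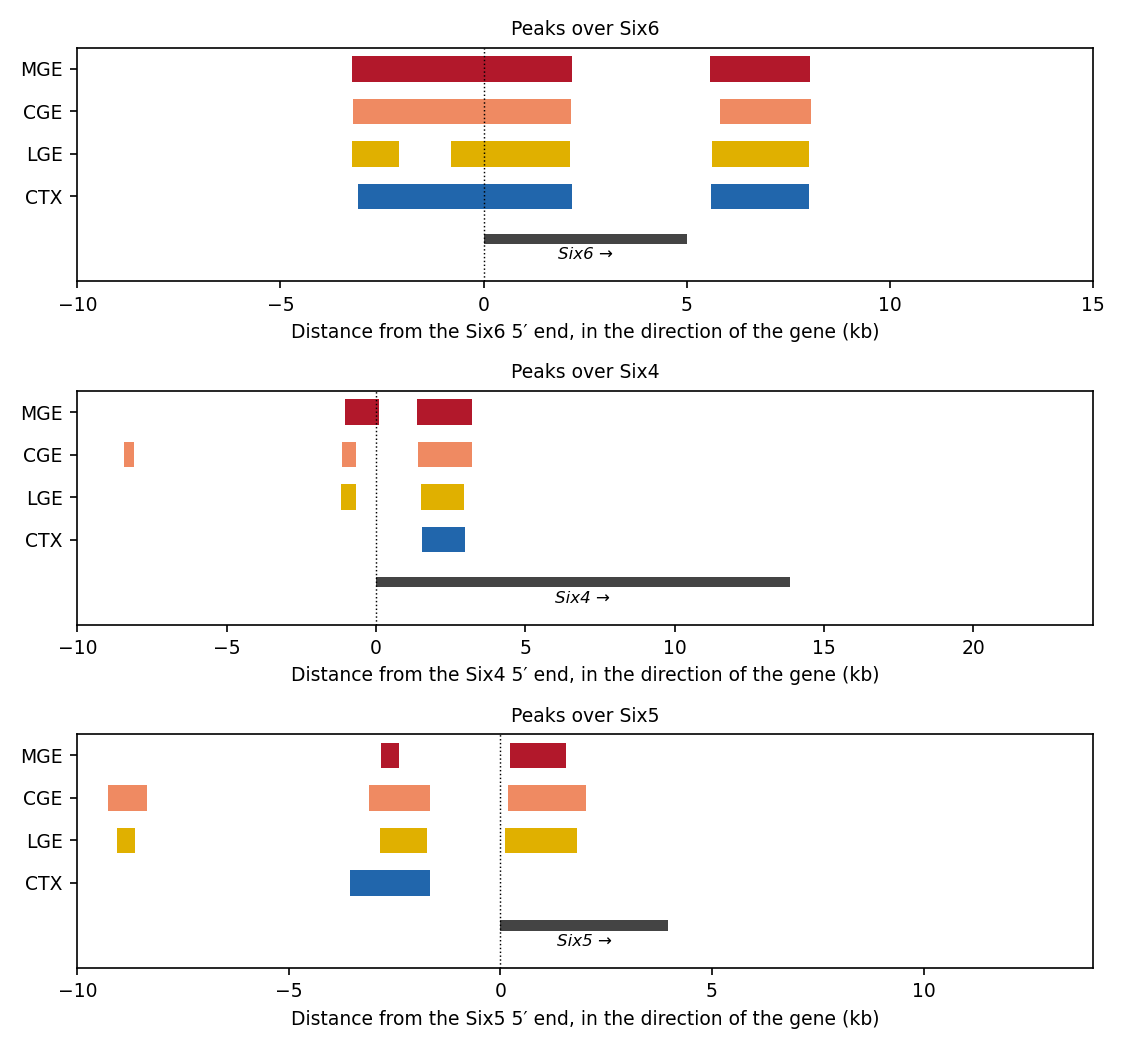
Peaks of each region (coloured boxes, a row per merged list) over *Six6*, *Six4* and *Six5*, by distance from the 5′ end in the direction of the gene (horizontal axis, kb); the dotted line is the 5′ end and the dark bar the gene. *Six6* is alike in all rows apart from a break upstream in LGE, *Six4* keeps the intronic peak alone in CTX, and *Six5* has no peak within the gene in CTX.

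Promoters, taken as the 2 kb upstream of the gene's 5′ end and called marked when at least 50% of their bases were under peaks, gave 4 members in MGE, 1 in LGE, 3 in CGE and 3 in CTX. Over all protein-coding genes, the shares were 6.47% in MGE, 6.52% in LGE, 8.33% in CGE and 7.14% in CTX. *Six3* was the only member marked in all 4 lists, a state held by 4.72% of genes, and this refers to its outer end. Measured from the inner end, an alternative chosen after the values were seen, no member was marked in all 4 lists. The *Six6* promoter was covered over 100% in MGE, CGE and CTX and 40.0% in LGE. The *Six2* promoter was covered over 77.3% in MGE, 4.30% in LGE, 63.4% in CGE and 100% in CTX. LGE was thus the list in which both were below the threshold. The *Six4* promoter was covered over 52.3% in MGE, 25.3% in LGE, 24.1% in CGE and 0% in CTX, just above the threshold in MGE. The *Six5* promoter reached at most 16.7%, in CGE. The 5′ end itself was under a peak at 3 members in MGE, 2 in LGE, 2 in CGE and 2 in CTX, against 19.2%, 20.8%, 20.9% and 22.8% of all genes.

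**Figure D5:**
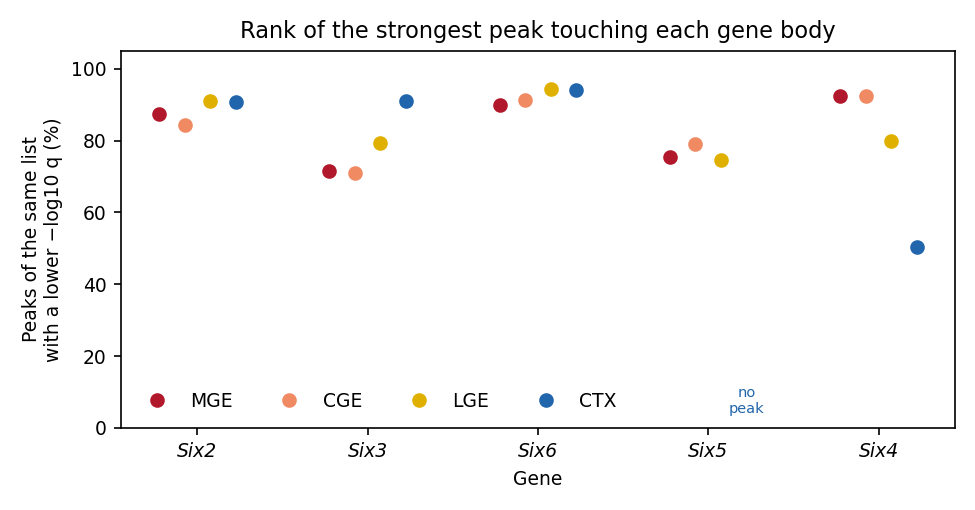
Strongest peak touching each gene body, as the share of peaks of the same list with a lower -log10 q (vertical axis, percent), with a point for each merged list and a note where a list has no gene-body peak. *Six3* ranks highest in CTX at 91.0% and *Six4* lowest in CTX at 50.5%, and *Six5* has no gene-body peak in CTX.

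Covered sequence was richer in CpG at each of the 5 genes. Over chromosomes 1 to 19 and X, bases covered in all 4 lists held 37.3 CpG per kb, bases covered in 1 to 3 lists 20.3, and bases covered in none 8.01. In the *Six3* window the values were 36.8, 29.3 and 16.1 CpG per kb. In the *Six6* window they were 33.5, 38.5 and 9.07. In the *Six2* window they were 30.1, 60.3 and 12.9, so that the bases covered in only some lists were the most CpG-rich. *Six4* held 29.9, 21.3 and 12.2, and *Six5* 47.8, 45.0 and 13.9 CpG per kb, although only 418 bases of the *Six5* window were covered in all lists.

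Partner and pathway genes of the family were read from a list of 20 genes with the same windows and promoters. Their promoters were marked at 8 genes in MGE, 7 in LGE, 9 in CGE and 6 in CTX, and at 5 in all lists. Over all protein-coding genes the shares were 6.47%, 6.52%, 8.33% and 7.14% in the same order, and 4.72% in all lists. Against the GE mean, CTX window coverage was lower at 13 of the 20 genes, higher at 6 and equal at 1. Among the 12122 genes with a covered base in any list, 48.9% were lower in CTX. None of the 4 *Eya* genes, which encode its phosphatase coactivators, had a marked promoter, as was the case for most protein-coding genes. *Dach1*, a cofactor gene, was covered over 91.4% of its promoter in MGE, 42.5% in LGE, 96.7% in CGE and 0% in CTX. All 5 Groucho-type genes of the list were lower in CTX than the GE mean. The differences were -12.2 points at *Tle2*, -7.39 at *Tle3*, -6.19 at *Tle4*, -4.25 at *Aes* and -2.27 at *Tle1*. CTX was the lowest list at *Tle3*, *Tle4* and *Aes*. It was above MGE at *Tle2* (26.7% against 26.0%) and above CGE at *Tle1* (2.07% against 0.630%). Of the 9 eye field and anterior forebrain genes, 4 were lower in CTX and 5 higher. The lowest were *Wnt8b*, a WNT ligand, at -15.4 points, *Pax6*, an eye and dorsal forebrain regulator, at -12.8 points, and *Lhx2*, a cortical selector, at -10.7 points. The highest were *Otx2*, a forebrain and midbrain regulator, at 6.61 points, *Hesx1*, a repressor of the anterior forebrain, at 5.45 points, and *Shh*, the ventral signalling ligand, at 4.28 points. At *Hesx1*, coverage was 3.26% in MGE, 20.3% in LGE, 19.4% in CGE and 19.8% in CTX, so CTX was not the highest list. *Six3*, at -2.25 points, lay between the named lowest and highest genes, as did *Rax* (-1.75), *Vax1* (1.05) and *Wnt1* (1.97). The sign of the *Six3* value depended on the setting, and the other genes were not recomputed.

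The protein-coding genes whose window coverage over the 4 lists was nearest to that of *Six3*, by Euclidean distance in percentage points, were *Sox21* (2.24 points), *Gm47841* (3.00 points), *Hsf4* (3.10 points), *Kcna7* (3.32 points) and *Vax1* (3.39 points). *Sox21* was covered over 36.7% in MGE, 35.4% in LGE, 40.0% in CGE and 35.9% in CTX, and *Vax1* over 33.9, 36.7, 39.0 and 37.6%. Among the members, *Six6* was nearest to *Six3*, at 16.8 points. The likeness rests on 4 values per gene.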

How the data were processed

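The 11 H3K27me3 CUT&Tag samples were assigned to regions by their labels. The authors aligned reads to GRCm38 (mm10) with Bowtie2, removed blacklisted reads and, with Picard, PCR duplicates, merged the samples of a region with SAMtools and called broad peaks with MACS, whose version is not given in the sources used here. The deposited lists give each peak's position, a score (not used here), a fold enrichment (a ratio to local background), the -log10 of a p-value (not used here) and the -log10 of a q-value. A replicate number is shared by 2 of the 3 CTX samples, and likewise in CGE and LGE. The study states 2 biological replicates for each region and lists read depth for those alone. How samples with a shared number relate to each other is not stated. The extraction protocol also mentions combining nuclei of the regions, and the lists were treated as those of the labelled regions.

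Genes and 5′ ends came from GENCODE mouse release 21, and sequences from RefSeq. Coverage was computed with Python 3.11.15 and numpy 2.4.6 and drawn with matplotlib 3.10.9, after the scripts were tested on simulated data. Coordinates count from 1. The named genes were the 5 members, the fixed list of 20 partner and pathway genes, 6 region genes, the 5 genes nearest to *Six3* and neighbours that overlap a member's window. Members and lists were chosen with earlier results of these data known. No test was run, since each region has 1 list, and peaks come without reads, and no counting error can be attached; reads per replicate, stated in the study's methods, were not used here.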

Additional observations from a re-analysis of the deposited data

How the results depend on the processing

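The coverage of the 5 windows, the counts of marked promoters and the 5′ end states were recomputed, where a setting applied to them, with peaks of a q-value under 0.001 alone, with peaks under 3 kb apart joined, with lists cut to an equal number of strongest peaks or to equal covered bases, with RefSeq gene bounds, with other flanks, and, chosen after seeing the data, with *Six3* measured from its inner 5′ end. The *Six3* difference between CTX and the GEs, -2.25 points as reported, was 0.0374 points at a q-value under 0.001, 11.1 points with joined peaks, 1.49 points with 50 kb either side and -3.42 points with 5 kb either side. With joined peaks the difference was -2.01 points at *Six2* and -0.391 points at *Six6*. *Six4* stayed between -8.63 and -0.938 points and *Six5* between -40.9 and -0.948 points under all 9 alternatives.

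With joined peaks, and likewise when any covered base counted as marked, 5 members had a marked promoter in CGE, 5 in LGE and 3 in all lists. Counting 2 kb on both sides of the start, they were 2 in LGE and 2 in all lists. With *Six3* measured from its inner end they were 0 in LGE and 0 in all lists. Shares of marked promoters over all protein-coding genes are given for the main setting alone. These counts therefore cannot be set beside a share under the same setting. The cause of these shifts was not tested. Of 36 states of a 5′ end in a list, 16 changed with joined peaks. The rank difference between CTX and the GEs kept its sign under both alternatives run for it and was 28.4 points at *Six3* and -65.4 points at *Six4* with a q-value under 0.001. The order of *Six2*, *Six3* and *Six6* held in all lists under 3 of 9 alternatives. Partner genes, sharing, CpG density and nearest patterns were not recomputed.

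Peaks were called on merged samples, so leaving out a sample was not possible. No paired analysis was possible because each region has a single list and no test was made. The lists hold no read counts, and the part of depth in the differences was not tested. With lists cut to equal size, the *Six3* difference was -2.25 points at an equal number of peaks and -2.37 points at equal covered bases. The cut to an equal number left *Six3* coverage unchanged in every list. Such cuts remove whole weak peaks and leave the ends of the others, so they cannot show the part of depth. Intervals of a few kb without peaks, such as those at *Six3* and *Six2*, rest on where the caller ended its peaks.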
